A study of Homo sapiens with 9 samples.

Results

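Broad open regions are stretches of accessible chromatin of at least 5 kb that were found in SK-N-MC cells with the control hairpin and with both hairpins against CHD4. To find them, the 3 deposited lists of accessible regions were merged wherever listed regions shared at least 1 bp, and merged regions of 5 kb or more with a region from every list were kept. This gave 5216 broad regions out of 130417 merged regions on chromosomes 1 to 22 and X. They made up 12.1% (95% Wilson interval 11.8 to 12.4) of the 43031 merged regions that held a region of each list, and the other 37815 of these are called narrower regions. The members were thus chosen by measured values, namely the merged width and presence in every list. Widths and numbers of covered bases are therefore given as a description, and no test was made on them.

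Accessibility was mapped with ATAC-seq, a method that uses the transposase Tn5 to cut open DNA and add sequencing adapters there. The cells were SK-N-MC (SKNMC in the labels), an established line of Ewing sarcoma. The 3 groups carried doxycycline-inducible hairpins named shScramble (the non-targeting control), shCHD4#1 and shCHD4#2. All groups, the control included, had 48 h of 100 ng/ml doxycycline, and 100 Drosophila S2 cells were spiked into the 100000 SK-N-MC cells of each sample. The labels give 3 biological replicates per group, 9 samples in all, and call the line's genotype wildtype apart from the hairpins. A single list per group was analysed and is assumed to combine that group's replicates. No spread between replicates can be had from it, so differences between hairpins were not tested. Read depth was unknown, since the lists hold no read counts. The intervals express counting error alone and take neighbouring regions as independent. In bulk samples, fewer cells with an open site and less opening per cell cannot be told apart.

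CHD4 is the ATPase of NuRD, a complex that joins nucleosome remodelling to histone deacetylation and acts at both promoters and enhancers. Most open sites in a cell are short, the length of a nucleosome-depleted stretch and its borders. Long open stretches are known from strongly transcribed genes, from gene clusters and from groups of neighbouring enhancers. In Ewing sarcoma, the fusion factor EWSR1::FLI1 binds GGAA repeats and is known to open chromatin there.

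Promoters of 4 members are printed here because they show the DNA under the starts that the values below turn on. They belong to the widest member that held a whole promoter of the RefSeq table, to the members with the lowest and the highest mean log2 ratio of covered bases, and to the best ranked member, by the same condition. Each is 300 bases of GRCh38.p14 from RefSeq, from 250 bases before the transcription start to 50 after it, 5′ to 3′ on the gene's strand. Capitals mark GC boxes (GGGCGG) or CCAAT motifs on either strand. BAHCC1 lies at chr17:81395207-81395506 on the plus strand, FANCB at chrX:14873020-14873319 on the minus strand, TAPBP at chr6:33314029-33314328 on the minus strand and TOB2 at chr22:41446752-41447051 on the minus strand.
BAHCC1: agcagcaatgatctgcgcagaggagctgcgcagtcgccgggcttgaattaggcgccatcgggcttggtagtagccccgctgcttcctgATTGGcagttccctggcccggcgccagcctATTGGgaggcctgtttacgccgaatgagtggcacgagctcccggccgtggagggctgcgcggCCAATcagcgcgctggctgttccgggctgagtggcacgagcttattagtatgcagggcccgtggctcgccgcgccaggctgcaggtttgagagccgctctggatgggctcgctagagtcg
FANCB: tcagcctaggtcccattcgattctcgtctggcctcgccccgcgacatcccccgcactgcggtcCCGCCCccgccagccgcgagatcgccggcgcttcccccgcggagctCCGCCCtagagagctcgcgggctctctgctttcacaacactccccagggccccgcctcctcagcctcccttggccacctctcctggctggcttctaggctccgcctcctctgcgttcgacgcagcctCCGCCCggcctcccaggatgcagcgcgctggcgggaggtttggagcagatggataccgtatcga
TAPBP: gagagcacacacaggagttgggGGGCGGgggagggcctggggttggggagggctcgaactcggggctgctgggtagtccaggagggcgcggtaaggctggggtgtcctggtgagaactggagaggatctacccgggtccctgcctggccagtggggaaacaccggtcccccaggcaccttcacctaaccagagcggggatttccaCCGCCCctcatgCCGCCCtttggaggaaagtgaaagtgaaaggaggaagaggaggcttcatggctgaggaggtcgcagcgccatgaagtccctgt
TOB2: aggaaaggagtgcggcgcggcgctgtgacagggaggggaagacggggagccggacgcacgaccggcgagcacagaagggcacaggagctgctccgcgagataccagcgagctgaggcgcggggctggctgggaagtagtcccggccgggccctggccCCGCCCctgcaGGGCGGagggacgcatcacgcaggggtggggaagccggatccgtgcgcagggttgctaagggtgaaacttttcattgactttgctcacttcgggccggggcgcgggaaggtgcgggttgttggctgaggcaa
The BAHCC1 promoter held 3 CCAAT matches and no GC box. Those of FANCB and TAPBP held 3 GC boxes each, and that of TOB2 held 2. The TAPBP promoter had 12 CpG dinucleotides and a CpG observed over expected ratio of 0.409. The other promoters had 27 (BAHCC1), 31 (FANCB) and 29 (TOB2), with ratios of 0.854, 0.901 and 0.881.

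The broad regions were 5000 to 35870 bp wide, with a median of 6425 bp and quartiles of 5568 and 7963 bp. In 1777 of them (34.1%, 32.8 to 35.4) at least 1 list held a single listed region of 5 kb or more, and in 110 (2.11%, 1.75 to 2.54) every list did. Every list covered the broad region with 1 unbroken stretch in 992 cases (19.0%, 18 to 20.1), where listed regions that abut count as 1 stretch. The same share among narrower regions was 71.8%. At least 5000 bp were covered in every list at 746 broad regions (14.3%, 13.4 to 15.3), and in no list at 1399 (26.8%, 25.6 to 28.0). The members just inside the limit, near NPHP4, near HMCN1 and in RBM20, were 5000 bp wide. Just outside it lay one region on chromosome 8 of 4999 bp, and those in RERE and at SFN of 4990 bp each. Abutting broad regions formed 33 pairs, so that the limit between neighbours was in places a break between listed regions only.

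Within broad regions, shCHD4#1 covered more bases than the control and shCHD4#2 fewer. The broad regions spanned 38.0 Mb. The shScramble list covered 25.1 Mb of this (66.1%), the shCHD4#1 list 29.0 Mb (76.2%) and the shCHD4#2 list 20.8 Mb (54.8%). Against shScramble, the sum was 1.15 times as large with shCHD4#1 and 0.829 times with shCHD4#2. The hairpins thus lay to either side of the control. In narrower regions the corresponding ratios were 1.03 and 0.796. The median broad region had 4480 bp covered with shScramble, 5165 bp with shCHD4#1 and 3570 bp with shCHD4#2. Its widest listed region was 2810, 3250 and 2205 bp in the same order. Over all of their regions, the median listed region was 1440 bp wide with shScramble, 1390 bp with shCHD4#1 and 1040 bp with shCHD4#2, and 940, 1483 and 474 listed regions reached 5 kb by themselves. The part of list length and region width in the differences within broad regions was not tested.

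The bases of the broad regions fell into 7 patterns of presence. All 3 lists covered 32.8% of them, against 39.4% in narrower regions. A further 17.9% were covered with shCHD4#1 only, 15.1% with shScramble and shCHD4#1, and 12.2% with shScramble only. Bases covered with both hairpins but not with shScramble made up 10.4%. The remaining 5.94% were covered with shScramble and shCHD4#2, and 5.62% with shCHD4#2 only. Bases that only the control covered (4.64 Mb) were thus more than bases that only the hairpins shared (3.95 Mb). In narrower regions the corresponding values were 12.3 and 7.32 Mb.

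Region by region, 1954 of the 5216 (37.5%, 36.2 to 38.8) had fewer bases covered with shCHD4#1 than with shScramble, and 3256 (62.4%) had more. With shCHD4#2, 3368 (64.6%, 63.3 to 65.9) had fewer and 1840 (35.3%) had more. Set against each other, shCHD4#2 covered fewer bases than shCHD4#1 at 4040 (77.5%, 76.3 to 78.6). Of narrower regions, 49.0% had fewer bases with shCHD4#1 and 70.5% fewer with shCHD4#2 than with shScramble. In 73.1% of them shCHD4#2 covered fewer than shCHD4#1. The direction with shCHD4#1 was another one when the same number of listed regions was taken from each list. Among the best 80000 listed regions of each list, 53.3% (51.4 to 55.3) of the broad regions had fewer bases with shCHD4#1, and 60.0% had fewer with shCHD4#2. Fewer bases with both hairpins were seen at 1676 broad regions (32.1%), and more with both at 1564 (30.0%). At 1687 (32.3%) shCHD4#1 covered more and shCHD4#2 fewer than the control, and the reverse held at 275 (5.27%). Among narrower regions these shares were 42.2%, 22.1%, 27.8% and 6.65% in the same order. Both comparisons share the shScramble list.

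**Figure D1:**
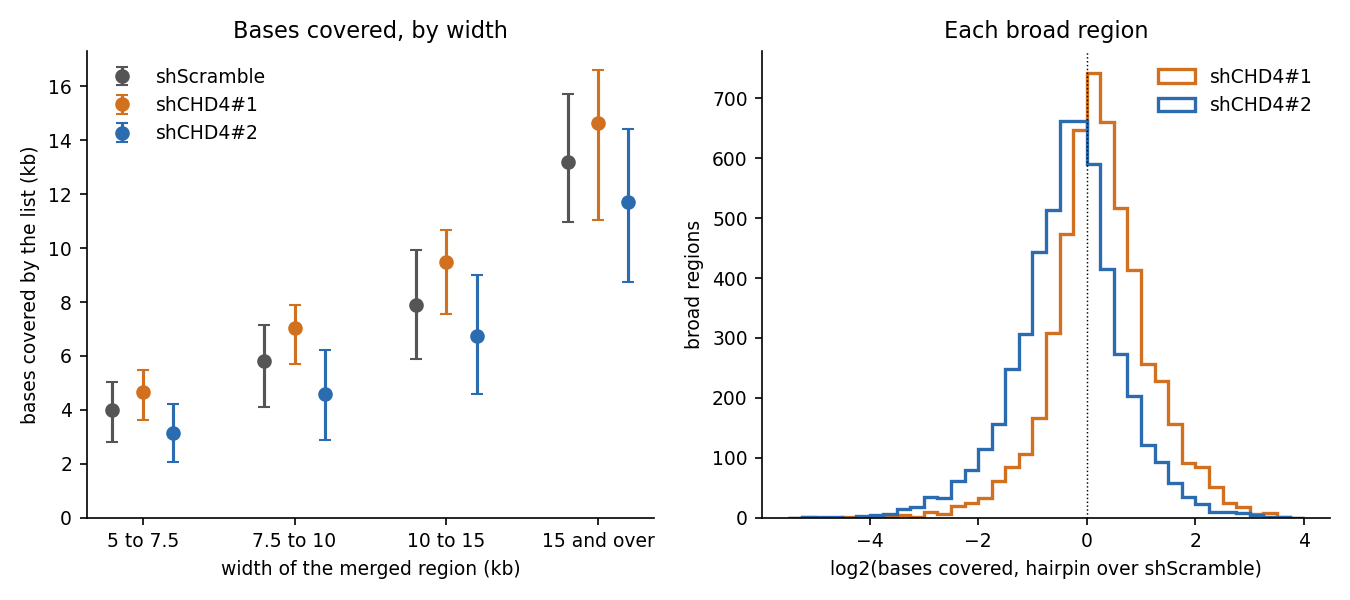
Left, bases covered per list (kb; points are medians, bars quartiles) for broad regions in 4 classes of merged width (kb). Right, number of broad regions by log2 of the bases covered with each hairpin over shScramble, with the dotted line at no difference. The shCHD4#1 medians lie above and the shCHD4#2 medians below shScramble in every width class, and the shCHD4#1 distribution peaks to the right of the line.

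Larger differences were counted at a ratio of 1.5. With shCHD4#1, covered bases were at least 1.5-fold lower at 715 broad regions (13.7%), beside 15.9% of all 43031 regions present in every list. They were at least 1.5-fold higher at 1669 (32.0%), beside 20.1%. With shCHD4#2 they were lower by this much at 1857 (35.6%), beside 37.9%, and higher at 739 (14.2%), beside 10.3%. Both hairpins were at least 1.5-fold lower at 523 (10.0%), beside 11.1%, and at least 1.5-fold higher at 584 (11.2%), beside 6.76%. Since merged width chose the broad regions, and wide regions of any list add to it, nothing is read from these shares against those of all regions.

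The ratios were compared by width class. Of the broad regions, 3620 were 5000 to 7500 bp wide, 1005 were 7500 to 10000 bp, 462 were 10000 to 15000 bp and 129 were 15000 bp or more. The ratio of summed bases with shCHD4#1 over shScramble was 1.15, 1.20, 1.17 and 1.01 in these classes, and with shCHD4#2 it was 0.815, 0.824, 0.881 and 0.854. Wider members lay at gene ends more often: the share was 44.1%, 49.2%, 55.2% and 61.2% from the narrowest class to the widest. Since a wider region reaches a gene end more easily and midpoints were not compared by class, nothing is read from this rise.

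Protein-coding genes of the RefSeq table served as annotation; it gives the ends of each gene, but neither exons nor introns nor UTRs. An end of a gene, start or 3′ end, lay in or within 1 kb of 2424 broad regions (46.5%, 45.1 to 47.8). A further 1502 (28.8%) lay inside a gene only and 1290 (24.7%) outside genes. In narrower regions these shares were 25.2%, 36.5% and 38.3%. A wider interval meets a gene end more easily, so midpoints were also compared, outside chromosome 8, whose promoters were not used here. The midpoint lay within 1 kb of a transcription start in 16.9% (15.9 to 18) of broad and 14.5% (14.2 to 14.9) of narrower regions. Starts of 2 or more genes lay inside 320 broad regions (6.73%, 6.05 to 7.48), and starts of 3 or more inside 36. Among narrower regions 1.80% and 0.0470% held as many.

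The ratios were also compared by place in the genome. Against shScramble the summed bases of broad regions with shCHD4#2 were 0.868 times as many at gene ends, 0.794 inside genes and 0.786 outside genes. Narrower regions had the same order, with 0.893, 0.774 and 0.748. With shCHD4#1 the ratios of broad regions were 1.12, 1.22 and 1.16. At the 36 broad regions with 3 or more starts the shCHD4#2 ratio was 1.01.

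At 1356 broad regions with a single transcription start the cover was read along the gene. At the start itself 81.5% (79.3 to 83.5) were covered with shScramble, 80.6% (78.4 to 82.6) with shCHD4#1 and 86.5% (84.6 to 88.2) with shCHD4#2. The order was another one away from the start. At 2000 bp upstream the shares were 51.6% (49.0 to 54.3), 57.9% (55.2 to 60.5) and 39.5% (37.0 to 42.2), and at 2000 bp downstream 55.8%, 61.7% and 46.8%. The shCHD4#2 list thus covered the starts of broad regions most often and their flanks least often. At the starts of the 5228 narrower regions with a single start the cover was 78.3%, 84.8% and 88.1%. At 2000 bp upstream it was 14.9%, 15.6% and 9.51% there, and at 2000 bp downstream 13.3%, 13.7% and 8.97%. In narrower regions, too, the shCHD4#2 list thus covered the starts most often and the flanks least often. The median broad region with a single start reached 3199 bp upstream of it and 3450 bp downstream, and 53.0% (50.4 to 55.7) reached further downstream, against 43.7% (42.4 to 45.1) of narrower regions.

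**Figure D2:**
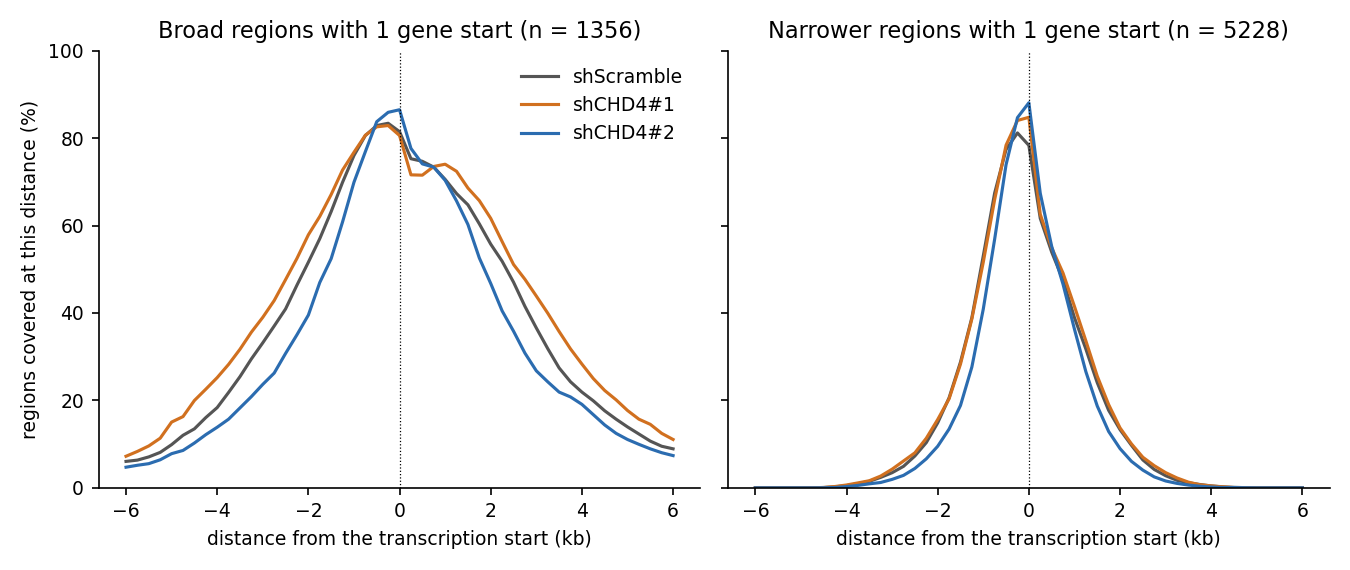
Share of regions (%) covered by each list at each distance (kb) from the transcription start, with upstream to the left, for the 1356 broad and 5228 narrower regions that hold 1 gene start. In broad regions the shCHD4#2 line is highest at the start (86.5%) and lowest at 2 kb on either side, where shCHD4#1 is highest. In narrower regions the shCHD4#2 line is also highest at the start and lowest at 2 kb.

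The authors' p-values rank the regions within a list, and a rank point is the rank as a percentage of the list, with low points for good ranks. The lists held 85359 (shScramble), 122456 (shCHD4#1) and 82824 (shCHD4#2) regions, so the same point in another list need not mean the same strength. Near the end of each list the ranks rose with genomic position, so the order there is not read as a difference in p. The best listed region of the median broad region stood at the 26.1% point with shScramble, 18% with shCHD4#1 and 19.5% with shCHD4#2. In narrower regions the medians were 30.4%, 23.3% and 34.1%. A broad region often holds several listed regions, so its best one has more chances to rank well. At gene ends the medians of broad regions were 20.8%, 13.3% and 11.5%. An authors' p of at most 0.05 was reached by 33.7%, 40.8% and 40.8% of broad regions, and in every list by 1085 (20.8%, 19.7 to 21.9). In narrower regions these shares were 21.9%, 28.4% and 20.8%, and 12.2% in every list. The best rank point was better with shCHD4#2 than with shScramble at 51.4% of broad regions, and at 58.2% of those at gene ends, 47.3% inside genes and 43.4% outside genes. For narrower regions these shares were 40.1%, 54.4%, 36.4% and 34.3%, with the same order by place. The unlike list lengths and the ends of the lists enter these shares, so no change in strength is read from them. Of the 3368 broad regions with fewer bases with shCHD4#2, 53.4% (51.7 to 55.1) had the better best rank point with it. Of such narrower regions 38.3% (37.7 to 38.9) did, so both shares were near those without this condition.

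Broad regions were unevenly spread over the chromosomes. On chromosome 8 they made up 462 of the 2121 regions present in every list (21.8%, 20.1 to 23.6). Of these 462, 294 lay between 120 and 140 Mb, where 45.2% (41.4 to 49.0) of the 651 regions present in every list were broad. The lowest shares were on chromosome 18 (17 broad regions, 3.07%, 1.93 to 4.87), chromosomes 14 and X (5.13% each) and chromosome 4 (5.44%). DNA copy number was not analysed here, and its part in these shares was not tested. Without the stretch on chromosome 8 the ratios of summed bases to shScramble were 1.16 with shCHD4#1 and 0.830 with shCHD4#2, close to those with it.

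**Figure D3:**
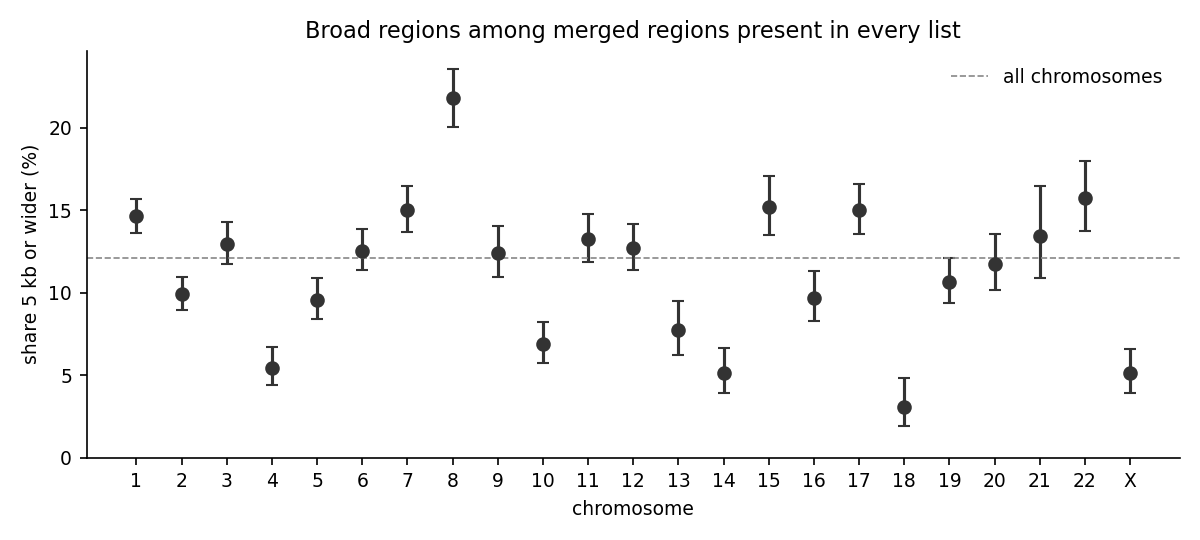
Share (%) of the merged regions present in every list that were 5 kb or wider, by chromosome, with 95% Wilson intervals as bars and the share over all chromosomes (12.1%) as the dashed line. Chromosome 8 stands highest at 21.8% and chromosome 18 lowest at 3.07%.

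Genes that spanned the most broad regions were ASAP1 (13), an Arf GTPase-activating protein, and ZFAT (11), a zinc finger factor, both in the stretch of chromosome 8. Outside it, LINGO1, which encodes a neuronal membrane protein, held 9, and CAMTA1, a calmodulin-binding transcription activator, and GSE1, a coiled-coil protein, held 8 each. MTSS1, on chromosome 8, also held 8. These are long genes: CAMTA1 spans 984253 bp and LINGO1 207874 bp. The widest LINGO1 member, 15910 bp at chr15:77818691-77834600, lay at a gene start and had 11620 bp covered with shScramble, 11540 bp with shCHD4#1 and 13630 bp with shCHD4#2. Another, chr15:77619771-77631140, had 4600, 9110 and 10670 bp in the same order.

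Of the 10 widest broad regions, 5 lay on chromosome 8, and the widest of all, 35870 bp at GPR20 and PTP4A3, a phosphatase gene, was one of these. It had 26930 bp covered with shScramble, 33090 bp with shCHD4#1 and 24810 bp with shCHD4#2. The widest elsewhere, 28550 bp, lay at the start of BAHCC1, a chromatin regulator with a BAH domain (chr17:81384141-81412690). Its covered bases were 20810, 23370 and 15760 bp, and it was cut into 8 stretches with shScramble, 11 with shCHD4#1 and 15 with shCHD4#2. The lists agreed on 33.7% of its bases only. A member of 28200 bp (chr11:786241-814440) held the starts of CEND1, SLC25A22, PANO1, PIDD1 and RPLP2, which encodes a ribosomal stalk protein, with 24390 bp covered with shScramble, 15810 bp with shCHD4#1 and 15430 bp with shCHD4#2. At TMEM141 and CCDC183 (chr9:136774381-136802860, 28480 bp) the covered bases were 16900, 27140 and 14910 bp. The BAHCC1 and GPR20 members thus followed the overall order of the lists, as TMEM141 did, and the RPLP2 member was lower with both hairpins.

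Histone gene clusters gave some of the widest members. The linker histone gene H1-4 and H2BC5 shared one of 27320 bp (chr6:26131911-26159230) with 11830 bp covered with shScramble, 20060 bp with shCHD4#1 and 14040 bp with shCHD4#2. Another with the starts of H4C2, H3C2 and H2AC4, 11800 bp wide (chr6:26023971-26035770), had 10560, 11650 and 9930 bp, and all 3 lists covered 84.1% of it. Histone genes have near-identical copies, so the reads behind these values may have been shared among them.

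At the largest decreases, 1 long listed region of the control stood against short ones. The members in this and the next paragraph were chosen for their ratios, which are a description. Near FCGR2A, an Fc receptor gene 46947 bp away, one of 18180 bp (chr1:161440331-161458510) had 17680 bp covered with shScramble, 470 bp with shCHD4#1 and 490 bp with shCHD4#2, and no base was covered in all 3 lists. The single control region ranked at place 51843 of 85359 there, while the short ones ranked at 14974 of 122456 and 11053 of 82824. In LNX1, a ubiquitin ligase gene (chr4:53630961-53638910) where the single control region ranked at 77124 of 85359, the covered bases were 7950, 400 and 670 bp. In GSE1 (chr16:85630981-85637880) they were 6870, 480 and 540 bp, and at MCRIP2 and WDR90 (chr16:649131-661000) 11220, 2030 and 370 bp. At NKX6-2, a homeodomain factor, and INPP5A (chr10:132783361-132796010) they were 12090, 1430 and 990 bp. In log2 of the ratio to shScramble, the member near FCGR2A stood at -5.23 with shCHD4#1 and -5.17 with shCHD4#2, and the one at WDR90 at -2.47 and -4.92. Members at SPDYE12 and near SPDYE8 were also among the 8 lowest, and they and the FCGR2A surroundings have near-identical copies, so these values are uncertain. At FANCB, a Fanconi anaemia gene whose promoter is printed above, the member of 6370 bp (chrX:14872651-14879020) also held the start of MOSPD2, and its covered bases were 6120, 790 and 730 bp.

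The largest increases were in EEFSEC, a selenocysteine elongation factor gene (chr3:128314621-128326070), with 1030 bp covered with shScramble, 10830 bp with shCHD4#1 and 8170 bp with shCHD4#2. The member at TAPBP, which encodes the peptide loading factor tapasin, ZBTB22 and DAXX, a histone H3.3 chaperone (chr6:33310921-33319560), had 1120, 7590 and 7400 bp. In MEF2D, a transcription factor gene (chr1:156474971-156485410), the values were 1310, 8450 and 7620 bp, and near PPP1R1B (chr17:39613441-39622890) 1220, 8880 and 8550 bp. At POLM, a DNA polymerase gene (chr7:44074561-44085920), they were 1340, 7610 and 9020 bp. The POLM member ranked well in every list, at place 348 with shScramble, 350 with shCHD4#1 and 222 with shCHD4#2. Others of these members did not. Near PPP1R1B the best ranks were 80809 of 85359, 117524 of 122456 and 13543 of 82824. In MEF2D they were 53839, 78934 and 40084, and at TAPBP 17076, 750 and 461. At PNPLA7 the best shCHD4#1 rank was 122323, and near ADRA2C the best shScramble rank was 83108. In log2 of the ratio to shScramble, EEFSEC stood at 3.39 with shCHD4#1 and 2.99 with shCHD4#2, and TAPBP at 2.76 and 2.72. The other 3 members of the 8 highest, at PNPLA7, near ADRA2C and at FAM90A1, which has near-identical copies, lay between 1.91 and 3.29.

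**Figure D4:**
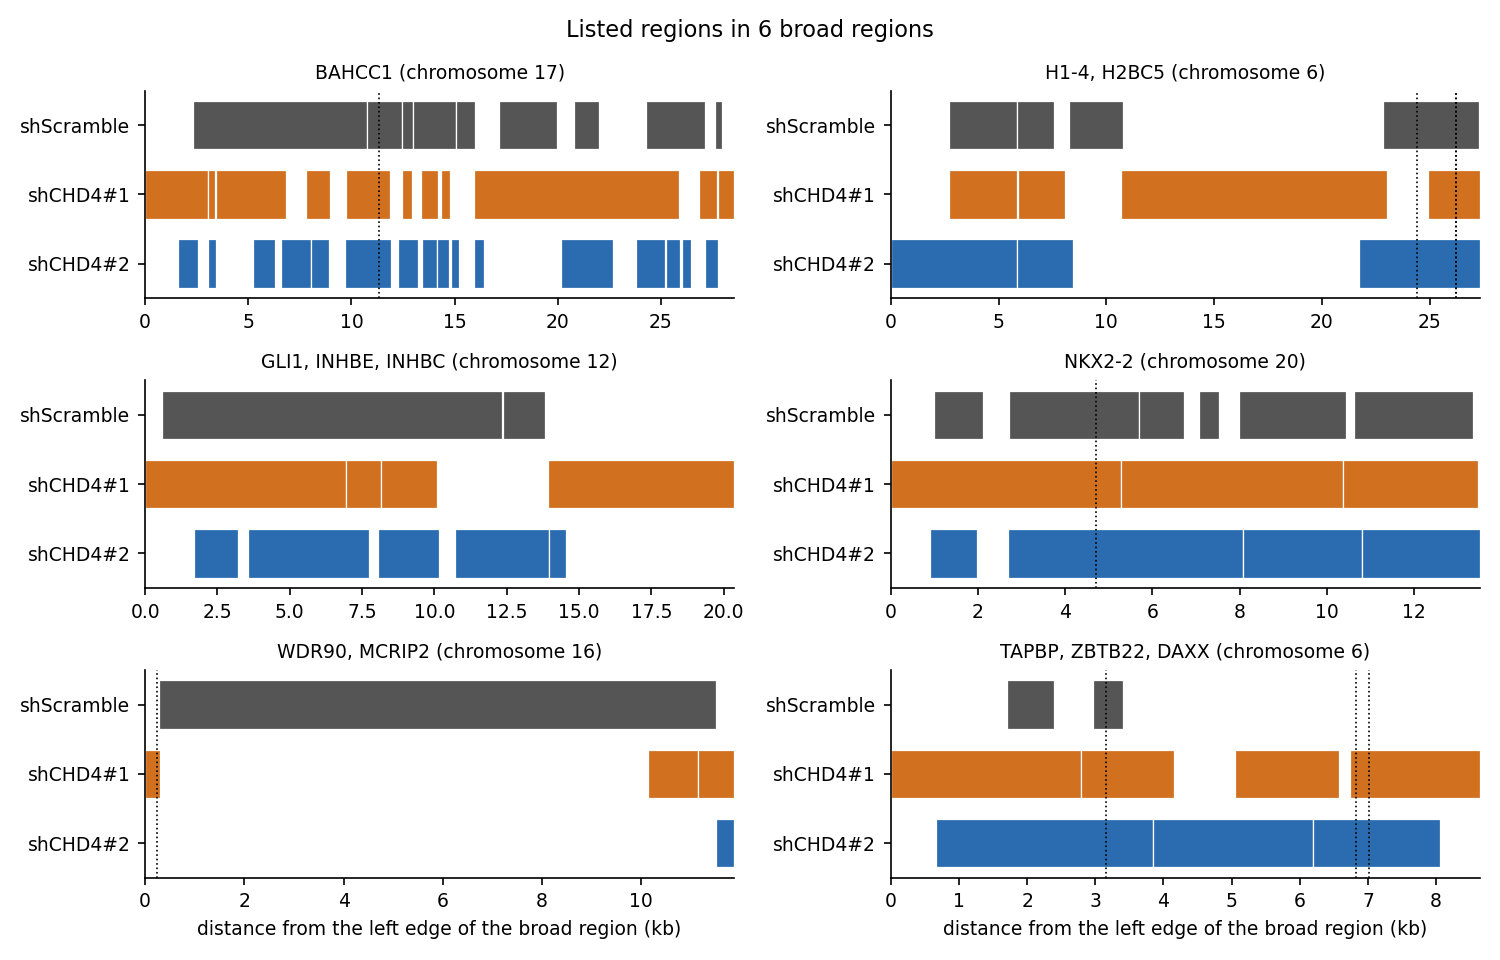
Listed regions (bars, 1 row of bars per list, white lines between abutting regions) along 6 broad regions, as distance from the left edge (kb); dotted lines mark transcription starts. The WDR90 member is 1 long control bar with short hairpin bars at its edges, the TAPBP member has short control bars under long hairpin bars, and the BAHCC1 member is cut into many bars.

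Of the best ranked members outside chromosome 8, the one at TOB2 had like numbers of covered bases in every list. At TOB2, an antiproliferative gene of the BTG/TOB family (chr22:41444081-41451490), 6340 bp were covered with shScramble, 6780 bp with shCHD4#1 and 6700 bp with shCHD4#2, and all 3 lists shared 77.5% of the 7410 bp. Its best ranks were 7, 11 and 20. At GARNL3 and SLC2A8, a glucose transporter gene (chr9:127394631-127399860), the covered bases were 2970, 4870 and 3670 bp and the ranks 14, 19 and 12. A member outside genes, chr7:25859381-25865020, had 5060, 3420 and 5100 bp and ranks of 6, 15 and 10. By the sum of ranks over the lists, the last members were one in PTPA, a phosphatase activator gene (85173, 122197 and 82662), and 4 of chromosome 8. Near the end of each list the ranks rose with genomic position, so these members cannot be called the poorest by p.

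At CHD4 itself, the start lay in a broad region of 5400 bp (chr12:6604561-6609960) with 4420 bp covered with shScramble, 4710 bp with shCHD4#1 and 4750 bp with shCHD4#2. It was in 3 stretches with shScramble, 2 with shCHD4#1 and 1 with shCHD4#2. A neighbour of 5870 bp (chr12:6610481-6616350) had 4870, 5870 and 4680 bp. Neither shows how far CHD4 was silenced. Of 15 genes of NuRD subunits, 10 (66.7%, 41.7 to 84.8) had a broad region in the gene or within 5 kb of it, beside 23.7% of all protein-coding genes. The median NuRD gene had 38121 bp, beside 24171 bp over all genes, and a longer locus meets a broad region more easily. The 10 genes had 16 members. Fewer bases were covered with shCHD4#1 at 6 and with shCHD4#2 at 10 of the 16, beside 37.5% and 64.6% of all broad regions. The deacetylase gene HDAC1 shared a member with MARCKSL1 (chr1:32328991-32340190) of 9230, 7400 and 5810 bp covered. Beside MTA1, the member at CRIP2 (chr14:105473361-105485830) had 11970, 6120 and 3510 bp. At CHD5 and MBD3 both hairpins covered more bases than the control: at CHD5, a paralogue of CHD4 (chr1:6141247-6149902), 3000, 7948 and 7258 bp were covered, and at MBD3 and MEX3D (chr19:1567061-1577640) 3290, 8150 and 5380 bp.

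The cell line's markers mostly had open ends. Of 10 Ewing sarcoma genes, 8 had an end covered in every list and 6 had a broad region. Of 12 genes of other cell types 3 had an end covered in every list (CD3E, EPCAM and CKM) and 2, SPI1 and MYH2, had a broad region. CD99, which lies in a pseudoautosomal region and so has a copy on Y, had no listed region in its locus in any list, and NR0B1 and CCND1 had no broad region. The MYH2 member, at a muscle myosin gene, had 1550 bp covered with shScramble, 920 bp with shCHD4#1 and 11900 bp with shCHD4#2.

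Genes activated by EWSR1::FLI1 had a broad region in 19 of 35 cases (54.3%, 38.2 to 69.5), beside 4731 of all 19974 protein-coding genes (23.7%, 23.1 to 24.3). Of their 27 members, 23 had fewer bases with shCHD4#2 than with shScramble and 4 had more, with a median ratio of 0.850, beside 64.6% with fewer and a median ratio of 0.819 over all broad regions. With shCHD4#1, 15 had fewer and 12 more, with a median of 0.982, beside 37.5% with fewer and a median of 1.16 over all. NKX2-2, a homeodomain factor, had the start in a member of 13510 bp (chr20:21508251-21521760) with 10800 bp covered with shScramble, 13470 bp with shCHD4#1 and 11890 bp with shCHD4#2. It was in 5 stretches with shScramble, 1 with shCHD4#1 and 2 with shCHD4#2, and 78.8% of it was common to all lists. GLI1, an effector of hedgehog signalling, shared 20360 bp with INHBE and INHBC (chr12:57449981-57470340), covered over 13210, 16520 and 11620 bp. LIPI and RBM11 shared 15260 bp (chr21:14203321-14218580), with 13750, 12820 and 11690 bp. At PPP1R1A, an inhibitor of protein phosphatase, and PDE1B (chr12:54577351-54592610) the values were 10290, 14200 and 11380 bp. Near STEAP1, a surface antigen of these tumours (chr7:90146631-90153190), they were 6560, 2410 and 2990 bp, the largest decrease with both hairpins of the members named for this list. The control value there was 1 listed region at rank 84282 of 85359, near the end of the list, where ranks rose with genomic position. The best ranks with the hairpins were 8088 and 8120. At BCL11B (chr14:99262461-99274190), a zinc finger factor, the covered bases were 6200, 8250 and 6150 bp.

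Of the 13 gene lists, those of histone and ribosomal protein genes had the largest shares with a broad region, beside 23.7% of all protein-coding genes. Of 41 replication-dependent histone genes 29 had one (70.7%, 55.5 to 82.4), but only 13 separate members lay behind them, since clustered genes share them. Of 33 ribosomal protein genes 23 had one (69.7%, 52.7 to 82.6), with 22 members. Of these members, 13 had more bases with shCHD4#2 than with shScramble and 9 fewer, beside 35.3% and 64.6% of all broad regions. RPL3 had a member of 16170 bp (chr22:39304741-39320910) with 13570 bp covered with shScramble, 14670 bp with shCHD4#1 and 15140 bp with shCHD4#2. The loci of these lists are short: the median gene had 495 bp in the histone list and 4450 bp in the ribosomal list, beside 24171 bp over all genes.

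Immediate early genes, which respond first to growth signals, had a broad region in 14 of 30 cases (46.7%), beside 23.7% of all protein-coding genes. JUND, an AP-1 subunit, shared one with IQCN (chr19:18271501-18281970) of 7850, 8660 and 9590 bp, and in ATF3 (chr1:212603731-212613630) the values were 6670, 3510 and 7190 bp. Polycomb genes had one in 12 of 29 cases (41.4%) and genes of the BAF remodeller in 11 of 27 (40.7%). Their median genes had 48478 and 40161 bp, beside 24171 bp over all genes, and a longer locus meets a broad region more easily. PCGF2, a Polycomb ring finger gene (chr17:38740461-38747790), had 3200, 4730 and 6590 bp. SS18L1, a BAF subunit gene (chr20:62134661-62146580), had 10630, 9530 and 3670 bp, and beside SMARCD1 the member at COX14 (chr12:50102721-50114190) had 5540, 10900 and 9010 bp. The members of these lists went both ways: of 23 Polycomb members 14 had fewer bases with shCHD4#2 and 9 more, and of 14 BAF members 9 had fewer and 5 more. Over all broad regions, 64.6% had fewer and 35.3% more with shCHD4#2, so nothing particular to these lists is read from the counts.

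Cell cycle genes had a broad region in 14 of 36 cases (38.9%), beside 23.7% of all protein-coding genes. Among them was PCNA, the sliding clamp of replication (chr20:5112001-5121360), with 8120 bp covered with shScramble, 8060 bp with shCHD4#1 and 4750 bp with shCHD4#2. In CCND3, a D-type cyclin gene (chr6:42038001-42048480), the values were 9970, 7770 and 4710 bp. Developmental factors had one in 26 of 77 cases (33.8%). HOXD13 and EVX2 shared one (chr2:176082441-176093070) of 6850, 10440 and 7710 bp, and SOX2 had one (chr3:181708311-181718380) of 7110, 5590 and 6860 bp. Mesenchymal genes had one in 8 of 30 cases (26.7%). COL3A1, a fibrillar collagen gene (chr2:188972981-188979970), had 3160, 5860 and 6740 bp, and CCN1 with DDAH1 (chr1:85575041-85586080) had 7670, 8840 and 11030 bp. CDH11, a mesenchymal cadherin (chr16:65115011-65124680), had 9670, 5000 and 7260 bp, and its single control region ranked at 80527 of 85359. Of the 8 members of this list, 2 had fewer bases and 6 more with shCHD4#1, and 3 had fewer and 5 more with shCHD4#2. Over all broad regions, 37.5% had fewer with shCHD4#1 and 64.6% fewer with shCHD4#2.

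Neuronal genes had a broad region in 8 of 32 cases (25%), beside 23.7% of all protein-coding genes. The median gene of this list had 93282 bp, beside 24171 bp over all genes. Of the 10 members of this list, 9 had fewer bases with shCHD4#2 than with shScramble, beside 64.6% of all broad regions. With shCHD4#1, 6 of the 10 had fewer and 4 more. NRXN2, a synaptic adhesion gene (chr11:64643141-64662520), had 13680 bp covered with shScramble, 18490 bp with shCHD4#1 and 10380 bp with shCHD4#2. At RBFOX3, a neuronal splicing factor, and ENGASE (chr17:79080891-79089920) the values were 7050, 4700 and 2270 bp. In RBFOX2 (chr22:35834011-35841320), where the single control region ranked at 82528 of 85359, they were 6960, 6320 and 3370 bp. Blood genes had one in 6 of 26 cases (23.1%, 11 to 42.1) and liver and gut genes in 2 of 24 (8.33%, 2.32 to 25.8). At KLF1, an erythroid factor that shares a member with GCDH and SYCE2 (chr19:12887921-12900150), 2480, 10430 and 1300 bp were covered. These counts were not tested.

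**Figure D5:**
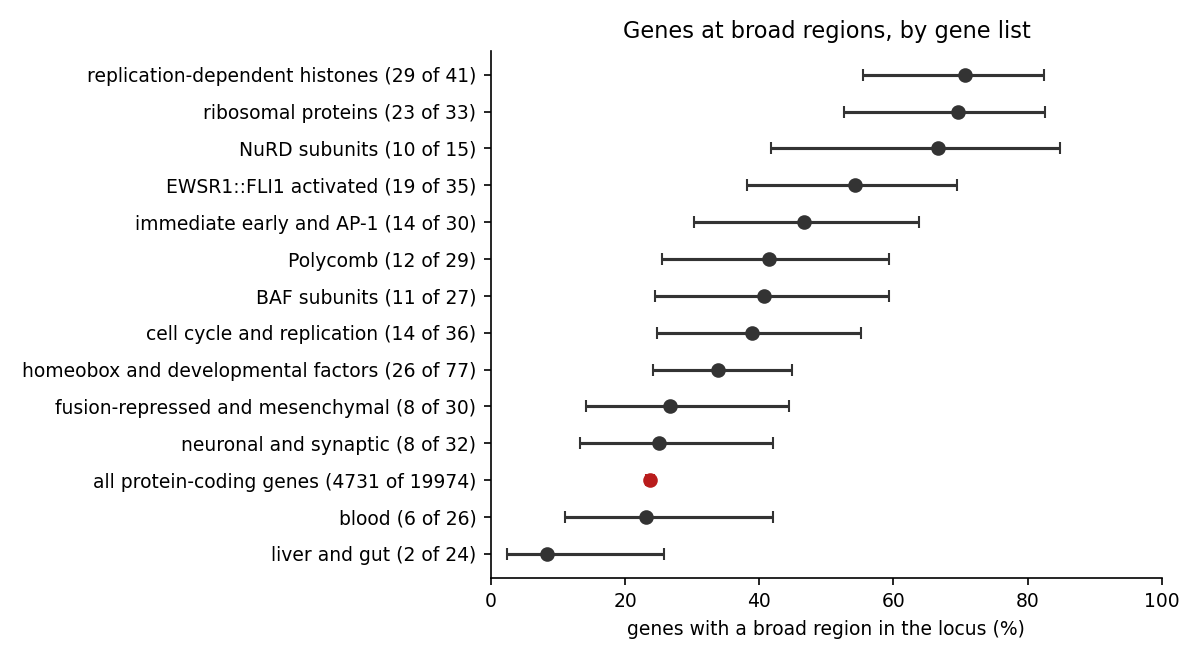
Share (%) of the genes of each list with a broad region in the gene or within 5 kb of it, with 95% Wilson intervals as bars and all protein-coding genes in red. Histone genes (29 of 41) and ribosomal protein genes (23 of 33) have the highest shares, and liver and gut genes (2 of 24) the lowest.

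Promoters within broad regions were compared by sequence with those of other genes. The RefSeq table held one for 82.1% of the 19259 genes looked up, and for 83.4% of the 2809 with an end in a broad region. Of 15812 promoters, 1832 lay wholly within a broad region, 5516 in a narrower one and 8464 in neither. The median GC content was 64.7% in broad, 63.7% in narrower and 60.7% in neither, and the median CpG observed over expected ratio was 0.834, 0.838 and 0.593. Broad and narrower regions were thus alike in CpG content, and both were above the rest. Motifs were searched on both strands. The GC box, GGGCGG, was in 71.1% (69.0 to 73.2) of broad, 69.1% (67.9 to 70.3) of narrower and 58.5% of all promoters, and CCAAT in 40.6%, 41.7% and 36.3%. The ETS motif CCGGAAGT, the site of the factor family that FLI1 belongs to, was in 8.68% (7.47 to 10.1) of broad and 10.9% (10.1 to 11.7) of narrower promoters, beside 6.20% of all. TATAAA was in 7.59% (6.46 to 8.89) of broad, 4.82% (4.29 to 5.42) of narrower and 9.64% of all. The AP-1 motif TGACTCA was in 3.11% of broad, 2.28% of narrower and 3.67% of all, the E-box CACGTG in 10.6%, 10.6% and 8.87%, and the NRF1 motif in 2.24%, 2.47% and 1.76%. Of all promoters 10 held GGAA 3 times in a row, 2 of them in broad regions and 3 in narrower ones. A match is a description of the letters and not a bound site.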

How the data were processed

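ATAC-seq of 9 samples (3 groups of 3 replicates) was analysed through 3 deposited lists of accessible regions, 1 per group. Reads were handled by the authors with BWA, SAMtools 1.9, FastQC 0.11.7, Trimmomatic 0.36 and deepTools 3.2.1, and the genomes were dm6 and GRCh38, per the submitters' processing notes. Not given in the sources used here are the peak caller, any shift for the Tn5 cut and any use of the spike-in, all of which could change how many regions were listed and how wide they are. The lists are named for ChIP-R, which combines replicates, and are filed under replicate 1, so that taking them as combined is an assumption. Every deposited region carries a score, a second score without stated unit, and a p-value and q-value from the authors. The scores served as a filter only, and the p-values ranked regions within a list.

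Regions with a second score below 0 or wider than 20 kb were dropped (416, 413 and 417 of 85775, 122869 and 83241, in the order shScramble, shCHD4#1, shCHD4#2). The rest were merged where they shared at least 1 bp, and merged regions of at least 5 kb with a region of each list were kept. Covered bases were counted per list. Shares have 95% Wilson intervals. No test between groups was made and no replicate could be left out. Gene ends counted within 1 kb, and genes of a list were searched with flanks of 5 kb. Genes and promoters came from RefSeq (GRCh38.p14). Regions were handled in Python 3.11.15 with pandas 2.3.3, NumPy 2.4.6, SciPy 1.17.1 and matplotlib 3.10.9. Merging and covered bases were tested on simulated regions, with 0 wrong of 156 merged regions.

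Named genes lie at the 10 widest members, the 8 lowest and 8 highest by mean log2 ratio of covered bases (at least 1 kb covered with shScramble, same sign for both hairpins), the 5 best and 5 worst ranked and the 3 nearest to each side of the limit. The 5 genes with the most members, up to 4 genes with the widest member per gene list (13 lists), and CHD4, NKX2-2, NR0B1 and CCND1 were added. Where no gene end lay within 1 kb, the nearest within 100 kb was taken. FANCB and MOSPD2 follow from the condition on whole promoters, and MTSS1 was tied in number. Marker genes were looked up as fixed. One member that the rule names is not reported here. The broad regions, the gene lists and the rules were chosen with earlier results of these data known. Alternatives covered the width limits, the gap allowed in merging, the filters on p-value, rank and second score, the presence rule and the gene-end window. The closing section gives their effect.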

Additional observations from a re-analysis of the deposited data

Results flagged for a closer look

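Within the broad regions the hairpins lay on opposite sides of the control. The bases covered with shCHD4#1 differed from those with shScramble by +15.4% (29.0 against 25.1 Mb), and those with shCHD4#2 by -17.1% (20.8 Mb). These values were picked out because the lists of the hairpins, both against CHD4, moved in opposite directions under the same contrast. With 1 list per group this difference was not tested. The lists as a whole covered 141 Mb with shScramble, 199 Mb with shCHD4#1 and 103 Mb with shCHD4#2, and the part of this in the result was not tested.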

How the results depend on the processing

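Of 72 values computed under 12 alternatives, 32 moved by less than their counting interval or, for counts of regions, by less than 1.5 times, and 40 moved more. With chromosome 8 left out, an alternative chosen after seeing the data, 4754 broad regions remained, of which 48.7% lay at gene ends. A minimum width of 4 kb gave 9206 broad regions, of which 42.4% lay at gene ends, 19.3% held a single listed region of 5 kb or more, 26.9% had 1 unbroken stretch per list, 39.97% had fewer bases with shCHD4#1 than with shScramble, and 76.0% fewer with shCHD4#2 than with shCHD4#1. A minimum of 8 kb gave 1290, with 52.6%, 72.7%, 7.52%, 33.8% and 79.1% for the same shares, and 62.0% with fewer bases with shCHD4#2 than with shScramble. An authors' p of at most 0.05 left 252, with 54.8%, 75%, 96.4%, 42.5%, 74.6% and 60.3% in that order. The best 80000 of each list gave 2508, with 25.5% holding a single listed region of 5 kb or more, 34.6% unbroken, 53.3% with fewer bases with shCHD4#1 than with shScramble, 56.7% with fewer with shCHD4#2 than with shCHD4#1 and 60.0% with fewer with shCHD4#2 than with shScramble. The share with fewer bases with shCHD4#1 thus passed to the other side of 50% under this alternative, which removes more regions from the shCHD4#1 list than from the others. Merging across gaps of up to 100 bp moved the single listed region to 24.2%, the unbroken share to 14.6% and fewer with shCHD4#1 to 35.7%. Accepting regions without all lists moved gene ends to 43.0%, the single listed region to 38.7%, the unbroken share to 16.3%, fewer with shCHD4#1 to 35.4% and fewer with shCHD4#2 to 62.0%. Keeping negative second scores moved the unbroken share to 20.4% and fewer with shCHD4#2 than shCHD4#1 to 76.1%. Dropping listed regions above 10 kb moved the single listed region to 32.2%. A gene-end window of 0 bp gave 41.7%, and one of 5 kb 55.2%. The cause of these moves was not tested. No paired analysis was possible because 1 list per group was analysed and the lists carry no replicate numbers. Depth is unknown, so regions missing from a list may be too weak to be called at its depth.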
